A study of Mus musculus with 7 samples.

Results

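The fatty acid elongases and desaturases are the enzymes that lengthen fatty acids and put double bonds into them, and their transcripts were measured in the livers of Trpm6-deficient and control mice. The set holds 10 genes, the elongases Elovl1, Elovl2, Elovl3, Elovl5, Elovl6 and Elovl7 and the desaturases Fads1, Fads2, Scd1 and Scd2, chosen by symbol from the 35556 probe sets of a whole-transcript array. Each of the 10 had 1 probe set annotated to it alone. The Trpm6-deficient livers came from 3 male C57BL/6 mice of the genotype Trpm6 Δ17/Δ17;Sox2-Cre, 1 of them 12 and 2 of them 13 weeks old. The control livers came from 4 male littermates of the genotype Trpm6 fl/+, without Cre, 2 of them 12 and 2 of them 13 weeks old. The Sox2 promoter drives Cre in the early embryo, so that the tissues of the mouse itself, though not the extraembryonic ones, lose the floxed exon, and the floxed line goes back to a single embryonic stem cell clone. The comparison is between livers of whole mice without and with TRPM6, a channel for Mg2+ uptake, with 1 array per mouse. The study reports low serum Mg2+, delayed growth and absent fat depots in such mutants. The loss of TRPM6 in liver, these changes of the whole mouse and the presence of Cre cannot be told apart here.

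Long-chain fatty acids grow in the endoplasmic reticulum by a repeated cycle that adds carbons from malonyl-CoA, and the ELOVL enzymes catalyse its first, condensing step. ELOVL1, ELOVL3, ELOVL6 and ELOVL7 prefer saturated and monounsaturated chains, whereas ELOVL2 and ELOVL5 work on polyunsaturated ones. SCD enzymes place the first double bond, making oleate and palmitoleate, and FADS1 and FADS2 are the front-end desaturases that turn dietary linoleate and alpha-linolenate into arachidonate and its omega-3 counterparts. In liver several of these genes are under the control of SREBP-1c and LXR, and Elovl3 is known as a gene that is higher in male than in female mouse liver and follows the time of day.

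Values are log2 expression from the authors' RMA summary, so 1 unit is a doubling, and the medians of the 7 arrays lay between 6.43 and 6.48. Values of different genes come from different probes, so a difference in level between genes was not read as a difference in amount. Changes between the groups were compared within arrays for 4 pairs of genes. Trpm6 itself had 5.50, 5.37 and 5.50 in Trpm6-deficient livers, against 5.53, 5.51, 5.50 and 5.50 in control livers, a low signal on every array, and the exons covered by its probes were not examined. Hepatocyte markers such as Alb and Cps1 were near the top of every array, and of 7 measured none was lower and 1, Apoa2, was higher before adjustment (limma p of at most 0.05, called the nominal threshold from here on). Of all probe sets, 3.85% were higher and 3.03% lower at that threshold. A change was called at an adjusted p of 0.1 or less from limma with Benjamini-Hochberg adjustment over all probe sets, the threshold of the study.

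Upstream sequence from RefSeq (build GRCm38.p6) was at hand for 6 of the 10 genes, Elovl1, Elovl2, Elovl5, Elovl6, Elovl7 and Fads2. The windows of Elovl5 and Elovl6 are shown because these are the elongases best known as targets of SREBP-1c, one for polyunsaturated and one for saturated chains. The first is chr9:77917115-77917414 on the plus strand and the second chr3:129532136-129532435 on the plus strand. Both run 5′ to 3′ and end inside the first transcribed bases, and capitals mark a CCAAT box (CCAAT, either strand, the letters bound by NF-Y) or an E-box (CACGTG).
Elovl5: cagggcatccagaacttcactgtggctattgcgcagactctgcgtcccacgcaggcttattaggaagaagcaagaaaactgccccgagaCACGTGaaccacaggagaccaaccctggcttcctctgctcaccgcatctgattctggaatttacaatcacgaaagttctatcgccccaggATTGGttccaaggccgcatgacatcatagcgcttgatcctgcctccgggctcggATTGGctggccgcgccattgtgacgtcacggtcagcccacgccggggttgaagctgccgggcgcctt
Elovl6: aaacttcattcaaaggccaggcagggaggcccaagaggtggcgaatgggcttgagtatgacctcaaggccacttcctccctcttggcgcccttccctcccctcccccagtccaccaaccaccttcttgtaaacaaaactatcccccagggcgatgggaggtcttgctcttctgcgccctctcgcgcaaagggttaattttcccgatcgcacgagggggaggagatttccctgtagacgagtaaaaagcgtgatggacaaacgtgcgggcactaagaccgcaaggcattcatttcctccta
The Elovl5 window holds 2 CCAAT boxes, both on the opposite strand and so printed as ATTGG, and 1 E-box, and the Elovl6 window neither. Of the 8 windows at hand for the 6 genes, 2 hold a CCAAT box and 1 an E-box. Among 32851 windows of the same 300 bases in the genome, 37.4% hold a CCAAT box and 7.15% an E-box. The 3 matches in the Elovl5 window do not overlap, and a match is a description of the letters only.

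Elovl3 was much lower in the Trpm6-deficient livers, and Scd2 was higher in 2 of them, while the groups overlapped in the other 8 genes. None of the 10 passed the adjusted test, for which the background was 0.129% of all probe sets. At the nominal threshold 1 gene was higher, Scd2, where 3.85% of all probe sets were, and 1 was lower, Elovl3, where 3.03% were. In Elovl3 every Trpm6-deficient liver lay below every control liver, as in 2.38% of all probe sets, and in Scd2 every one lay above, as in 2.94%. The median log2 change of the 10 was 0.08, beside 0.00 over all probe sets, with 8 positive and 2 negative. In whole liver, fewer cells of a type and less RNA per cell cannot be told apart.

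**Figure D1:**
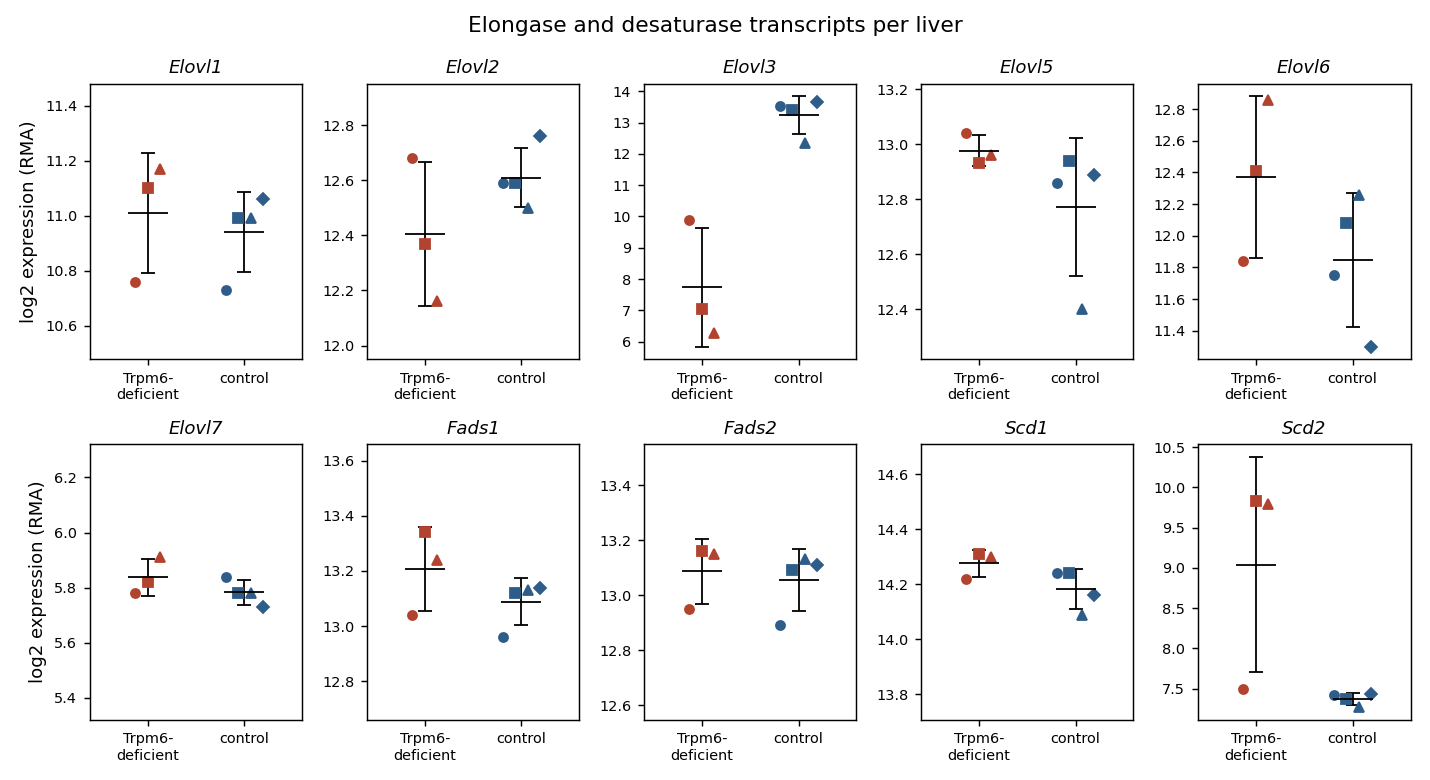
Log2 expression of the 10 transcripts, with 1 point per liver (circles, squares, triangles and diamonds for mice 1 to 4 of a group), group means drawn as horizontal lines and SDs as bars (Trpm6-deficient, n = 3; control, n = 4). Each panel has its own vertical axis, spanning at least 1 log2 unit; Elovl3 and Scd2 are the panels in which the groups do not overlap, and the Scd2 value of Trpm6-deficient 1 lies just above the controls.

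Elovl3 makes saturated and monounsaturated very long chains, and in mouse it was first described in brown fat and is also strong in male liver. Its log2 values were 9.88, 7.06 and 6.28 in Trpm6-deficient livers 1, 2 and 3, against 13.54, 13.41, 12.35 and 13.66 in control livers 1 to 4. All 3 Trpm6-deficient livers were low, the first the least so, and control 3 was the lowest of the controls. The group means were 7.74 ± 1.89 (SD, n = 3) in Trpm6-deficient and 13.24 ± 0.60 (SD, n = 4) in control livers. The log2 change was -5.50 (SE 0.87; limma, adjusted p = 0.191), or a 45.3-fold lower level with a 95% interval of 10.7 to 192. The value of Trpm6-deficient 3 lay below the median of its array, 6.48, and whether it was above background was not examined. The size of the fold is therefore uncertain. Of all 35556 probe sets only 1, that of Hsd3b5 at -6.01, had a more negative log2 change than Elovl3. Its p-value, 0.000533 before adjustment, ranked 99th. The spread among the Trpm6-deficient livers, 3.60 log2 units from lowest to highest, was wider than that among controls, 1.31. Without Trpm6-deficient 1 the log2 change was -6.57 (adjusted p = 0.0318 from limma) and Elovl3 passed. It kept its direction without any other liver, at -4.77 to -5.80, and did not pass. Among the 12-week-old mice the difference was -6.42 (1 Trpm6-deficient liver against 2 control livers) and among the 13-week-old mice -4.93 (2 against 2), both values without a test.

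The 3 genes whose 7 values followed those of Elovl3 most closely were Hsd3b5, Serpina4-ps1 and Cyp4a12b. Likeness was measured as the root mean square difference between the deviations of both genes from their own means over the 7 arrays, in log2 units. It was 0.51 for Hsd3b5, a gene for a steroid reductase found mostly in livers of male mice, which had 8.04, 5.66 and 5.28 in Trpm6-deficient livers and 12.19 to 12.52 in control livers. It was 0.66 for Serpina4-ps1, a serpin pseudogene, with 7.28, 5.88 and 5.45 in Trpm6-deficient livers and 10.95 to 12.10 in control livers. It was 0.91 for Cyp4a12b, a fatty acid hydroxylase gene of male mouse liver, with 10.79, 9.20 and 7.63 in Trpm6-deficient livers and 12.91 to 13.30 in control livers. Hsd3b5 and Serpina4-ps1 passed the adjusted test (limma, adjusted p = 0.0735 and 0.0623) and Cyp4a12b did not (0.232). The 3 genes were chosen for this likeness, so that a pattern of livers shared with Elovl3 follows from the choice.

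Scd2 is a delta-9 desaturase gene that is prominent in brain and other tissues, while Scd1 is the main form of adult liver. Its log2 values were 7.50, 9.83 and 9.80 in Trpm6-deficient livers 1, 2 and 3, against 7.42, 7.37, 7.27 and 7.43 in control livers 1 to 4. Livers 2 and 3 were high, and liver 1 lay 0.07 above the highest control. The group means were 9.04 ± 1.34 (SD, n = 3) in Trpm6-deficient and 7.37 ± 0.07 (SD, n = 4) in control livers. The log2 change was 1.67 (SE 0.57; limma, adjusted p = 0.649), or a 3.18-fold higher level with a 95% interval of 1.23 to 8.25. When Trpm6-deficient 1 was left out, Scd2 passed with a log2 change of 2.44 (limma, adjusted p = 0.00112). When Trpm6-deficient 2 or 3 was left out, the change was 1.28 or 1.29 (limma, adjusted p = 0.823 and 0.910). In both cases the nominal threshold was missed, as it was without control 2 or control 3, at log2 changes of 1.67 and 1.64. Among the 12-week-old mice the difference was 2.44 and among the 13-week-old mice 1.30.

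The genes nearest to Scd2 by the same measure were Acta2, at 0.32, Raet1d, at 0.39, and Orm3, at 0.39. Acta2 encodes the smooth muscle actin of vessel walls and activated stellate cells, and had 8.03, 9.42 and 9.95 in Trpm6-deficient livers and 7.58 to 8.03 in control livers. Raet1d, a gene for a ligand of the natural killer receptor NKG2D, had 9.18, 10.54 and 10.35 in Trpm6-deficient livers and 8.23 to 8.98 in control livers. Orm3, a gene of the orosomucoid family of acute phase proteins, had 7.02, 8.31 and 8.24 in Trpm6-deficient livers and 5.84 to 6.49 in control livers. Here too the shared pattern of livers follows from the choice.

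**Figure D2:**
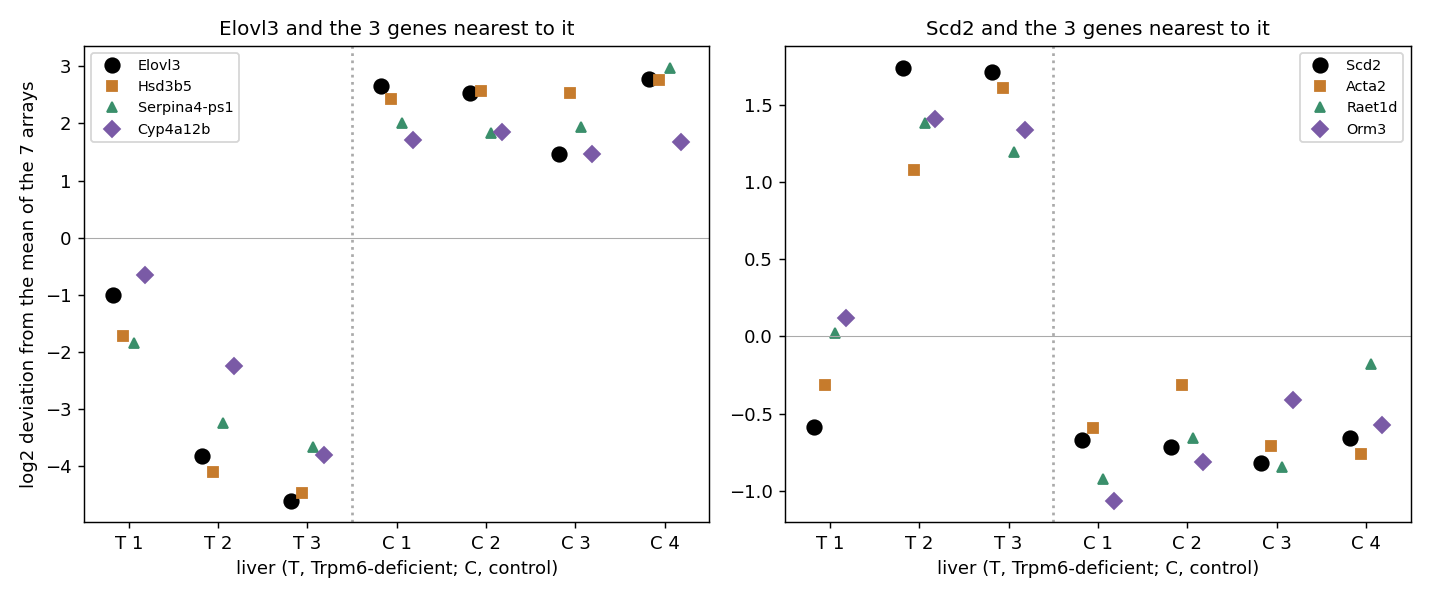
Log2 deviation from the gene's own mean over the 7 arrays, for Elovl3 (left) and Scd2 (right) and the 3 genes nearest to each, with the livers along the horizontal axis (T, Trpm6-deficient; C, control). The genes were chosen for their likeness to Elovl3, lowest in T 3 at 6.28, or to Scd2, highest in T 2 at 9.83 log2 units, and so follow these patterns.

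Markers of other cell types were read beside Scd2, which fat and other non-hepatocytes also express. For their counts, 3.85% of all probe sets were higher and 3.03% lower at the nominal threshold. Of 7 adipocyte markers none was higher and 1, Fabp4, was lower at the nominal threshold, and their mean log2 level was 6.46 to 6.53 in Trpm6-deficient livers and 6.56 to 6.60 in control livers. Adipoq, the most specific of them, was between 4.40 and 4.67 on all arrays, below the lower quartile of each. Of 6 stellate cell markers 2, Reln and Des, were higher at that threshold, with a mean level of 9.16 to 9.30 in Trpm6-deficient livers and 9.03 to 9.25 in control livers. The other 4 did not pass it, with log2 changes of 0.13 for Dcn, -0.02 for Col3a1, -0.03 for Col1a1 and -0.21 for Lrat, so that 3 of the 6 were positive and 3 negative. Des, an intermediate filament gene, had 7.49, 7.85 and 7.77 in Trpm6-deficient livers and 7.35 to 7.56 in control livers. Of 4 bile duct markers 1, Krt19, was higher, with 6.84, 7.22 and 7.05 in Trpm6-deficient livers and 6.53 to 6.84 in control livers, and the mean level of the 4 was 6.94 to 7.11 in Trpm6-deficient livers and 6.86 to 6.94 in control livers. Of 6 macrophage, 5 endothelial and 5 lymphocyte markers none passed the nominal threshold. Negative log2 changes were found in 5, 5 and 4 of them, in that order. The mean level of the macrophage markers was 9.02 to 9.07 in Trpm6-deficient livers and 8.78 to 9.66 in control livers. Alas2, the 1 red cell marker measured, had 9.95, 8.85 and 9.19 in Trpm6-deficient livers and 10.72 to 11.17 in control livers. It was lower at the nominal threshold, with a log2 change of -1.655 (limma, adjusted p = 0.192). Of 2 pancreatic markers 1, Cela1, was lower at that threshold. The part of these cells in the Scd2 and Elovl3 values was not tested.

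Scd1, the main hepatic stearoyl-CoA desaturase gene, had 14.22, 14.31 and 14.30 in Trpm6-deficient livers and 14.24, 14.24, 14.09 and 14.16 in control livers. Its log2 change was 0.09 (95% interval -0.04 to 0.23, adjusted p = 0.837 from limma). Its signal exceeded that of 99.96% of probe sets, close to the highest value of any array, 14.79, and whether it was saturated was not tested. Within an array the Scd2 change exceeded the Scd1 change by 1.58 log2 units, in 3 of 3 Trpm6-deficient livers, but by only 0.09 in Trpm6-deficient 1. The exact two-sided permutation test over the arrays gave p = 0.0571 for this difference, the smallest that 3 against 4 arrays allow. Control 4 was at 0.08 on the same scale, beside 0.09 in Trpm6-deficient 1. The separation behind this p is therefore no larger than the rounding of the values. Scd3, Scd2, Scd4 and Scd1 follow one another on chromosome 19 with no other protein-coding gene between them. The neighbours Scd3 and Scd4 had log2 changes of 0.06 and 0.09, both with low signals between 5.19 and 5.76, and Scd2 was the gene of the cluster with a change above 1. Whether probes of one Scd gene also read another was not examined.

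**Figure D3:**
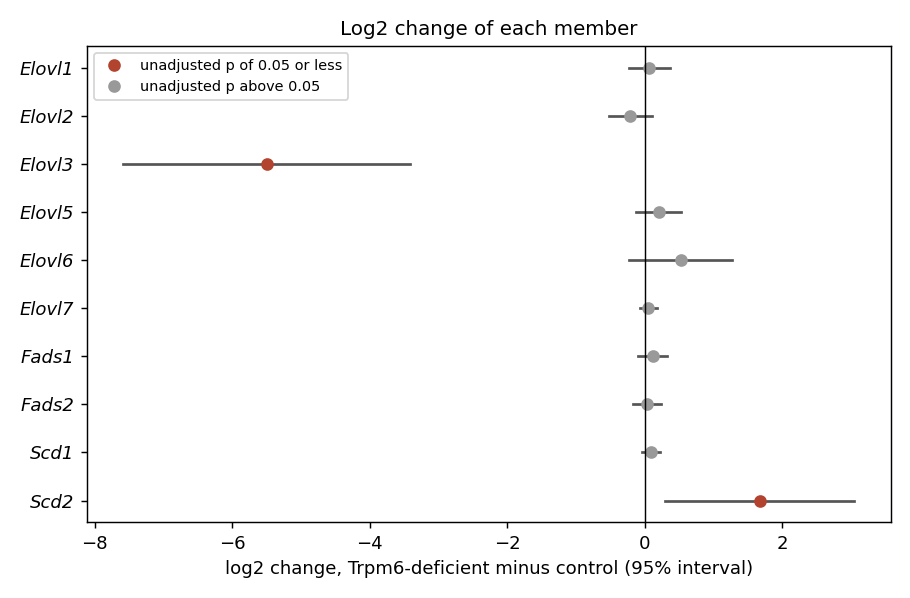
Log2 change of each transcript, Trpm6-deficient minus control, with its 95% interval from limma (3 Trpm6-deficient and 4 control livers). Elovl3 at -5.50 and Scd2 at 1.67 are the transcripts whose intervals exclude 0.

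Elovl6, which lengthens palmitate to stearate, had the next largest change. Its values were 11.84, 12.41 and 12.86 in Trpm6-deficient livers and 11.75, 12.08, 12.26 and 11.30 in control livers. The 2 highest were Trpm6-deficient livers, and Trpm6-deficient 1 lay within the controls. The log2 change was 0.52 (95% interval -0.23 to 1.27, adjusted p = 0.836 from limma), which includes no change and also more than a doubling. It was 0.79 without Trpm6-deficient 1, 0.28 without Trpm6-deficient 3 and 0.34 without control 4. The changes of Elovl3 and Elovl6 differed by -6.02 within arrays (exact two-sided permutation p = 0.0571). The gap between the groups in Elovl3 alone fixed this p at its smallest possible value, so it says nothing about Elovl6. Elovl1, which makes the very long chains of sphingolipids, had a log2 change of 0.07 (95% interval -0.23 to 0.37), with 10.76 to 11.17 in Trpm6-deficient and 10.73 to 11.06 in control livers. Elovl7 was low on every array, at 5.78 to 5.91 in Trpm6-deficient and 5.73 to 5.84 in control livers, below the array medians, and whether it was above background was not examined.

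The genes for enzymes of polyunsaturated chains had log2 changes between -0.21 and 0.20. Fads1, the delta-5 desaturase gene, had 13.04, 13.34 and 13.24 in Trpm6-deficient livers and 12.96, 13.12, 13.13 and 13.14 in control livers. Fads2, the delta-6 desaturase gene, had 12.95, 13.16 and 13.15 in Trpm6-deficient livers and 12.89, 13.09, 13.13 and 13.11 in control livers. Both were lowest, within their group, in mouse 1. The log2 change was 0.12 for Fads1 (95% interval -0.09 to 0.33) and 0.03 for Fads2 (95% interval -0.17 to 0.24), and the Fads2 value was -0.01 with the arrays quantile-normalized again. The Fads1 change was 0.20 without Trpm6-deficient 1, 0.05 without Trpm6-deficient 2 and 0.08 without control 1. Within arrays the Fads2 change was below the Fads1 change by a mean of -0.09 (exact two-sided permutation p = 0.0571), in 3 of 3 Trpm6-deficient livers. Relative to the control mean the difference was -0.06, -0.15 and -0.06 in these livers and -0.04 to 0.03 in control livers, a narrow gap. Fads3, which lies next to Fads2 on chromosome 19 and desaturates sphingoid bases, had 7.64, 8.02 and 8.07 in Trpm6-deficient livers and 7.58 to 7.76 in control livers, a log2 change of 0.22 (adjusted p = 0.818 from limma).

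Elovl2 carries polyunsaturated chains to the length needed for docosahexaenoate, and Elovl5 acts on the shorter ones. Elovl2 had 12.68, 12.37 and 12.16 in Trpm6-deficient livers and 12.59, 12.59, 12.50 and 12.76 in control livers. Its log2 change was -0.21 (95% interval -0.52 to 0.11, adjusted p = 0.842 from limma), with Trpm6-deficient 2 and 3 below every control and Trpm6-deficient 1 among them. It was -0.35 without Trpm6-deficient 1 and -0.09 without Trpm6-deficient 3. Elovl5 had 13.04, 12.93 and 12.96 in Trpm6-deficient livers and 12.86, 12.94, 12.40 and 12.89 in control livers, a log2 change of 0.20 (95% interval -0.13 to 0.54, adjusted p = 0.851 from limma). Control 3 was the lowest liver, and without it the log2 change was 0.08. The Elovl2 change was below the Elovl5 change by a mean of -0.41 (exact two-sided permutation p = 0.0571), and with the arrays quantile-normalized again this p was 0.114. Relative to the control mean the difference was -0.20 in Trpm6-deficient 1 and -0.19 in control 2. The separation of the groups is therefore no larger than the rounding of the values. The 4 pairs compared within arrays were chosen with earlier results of these data known. All 4 had the smallest p that the permutation test allows, so this p does not rank the pairs.

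The Trpm6-deficient livers were not alike. Trpm6-deficient 1 was the highest or the lowest of the 3 in 10 of 10 genes, and it was the one nearest to the control mean in 7 of 10. Over all probe sets it was at an end in 59.4% and nearest to the control mean in 26.8%. The median deviation of the 10 genes from the control mean was -0.00 in Trpm6-deficient 1, 0.14 in Trpm6-deficient 2 and 0.14 in Trpm6-deficient 3. Without this liver 2 of the 10 genes passed the adjusted test, Elovl3 and Scd2, as did 0.194% of all probe sets, or 69, against 46 with it. At the nominal threshold 3 were then higher, Elovl6, Fads1 and Scd2, where 4.54% of all probe sets were, and 2 were lower, Elovl2 and Elovl3, where 3.36% were. This liver was singled out from these same 10 genes as the nearest to the controls. The larger counts without it follow in part from that choice, and the background shares are no fair measure for them. The mice Trpm6-deficient 1 and 3 were both 13 weeks old.

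Of 51 genes that supply, assist, regulate or follow these enzymes 47 were measured, and none passed the adjusted test. At the nominal threshold 6 were higher, where 3.85% of all probe sets were, and 2 lower, where 3.03% were. The median log2 change of the 47 was 0.03. Among 7 genes of the other steps of elongation, 1 was higher at this threshold. This was Hacd2, a dehydratase gene of the cycle, with 12.61, 12.71 and 12.73 in Trpm6-deficient livers and 12.14 to 12.48 in control livers, a log2 change of 0.34 (adjusted p = 0.502 from limma). Tecr, the reductase gene that ends each turn, had a log2 change of 0.26, and Hsd17b12, the gene of the first reductase, one of -0.15. Without control 1 these were 0.14 for Tecr and -0.08 for Hsd17b12, and without Trpm6-deficient 3 the Tecr change was 0.15. Of 6 cytochrome b5 and cytochrome b5 reductase genes, listed for electron supply to desaturases, none passed at either threshold. The largest change was that of Cyb5b, at 0.30, and Cyb5a had one of 0.02. Which of the 6 serve desaturases in these livers was not examined.

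Of 9 genes of fatty acid synthesis and malonyl-CoA, 2 were higher at the nominal threshold, as were 3.85% of all probe sets. Acaca, which makes the malonyl-CoA that elongases use, had 10.79, 11.09 and 11.60 in Trpm6-deficient livers and 10.07 to 10.77 in control livers, a log2 change of 0.65 (adjusted p = 0.688 from limma). Acss2, an acetyl-CoA synthetase gene, had one of 0.46. Fasn, the fatty acid synthase gene, had 12.67, 13.04 and 13.52 in Trpm6-deficient livers and 11.86 to 12.87 in control livers, with overlap. Of 3 long-chain acyl-CoA synthetase genes, Acsl5 was higher at that threshold, with a log2 change of 0.46.

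Of 10 measured regulators 2 were higher and 1 lower at the nominal threshold, beside 3.85% and 3.03% of all probe sets. Srebf1, which encodes SREBP-1, had 10.55, 10.67 and 11.02 in Trpm6-deficient livers and 9.71 to 10.52 in control livers. Srebf2, the regulator of cholesterol synthesis, had a log2 change of 0.28, and Rxra, the partner of LXR and PPARA, one of -0.26. Of 7 genes for the later use of polyunsaturated acyl groups 1 was lower. Scp2, whose products include a thiolase of peroxisomal beta-oxidation, had 12.83, 12.36 and 11.98 in Trpm6-deficient livers and 13.15 to 13.47 in control livers, with a log2 change of -0.91 (SE 0.20; limma, adjusted p = 0.386). The groups did not overlap in Scp2, and Trpm6-deficient 1 was again the nearest to the controls.

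**Figure D4:**
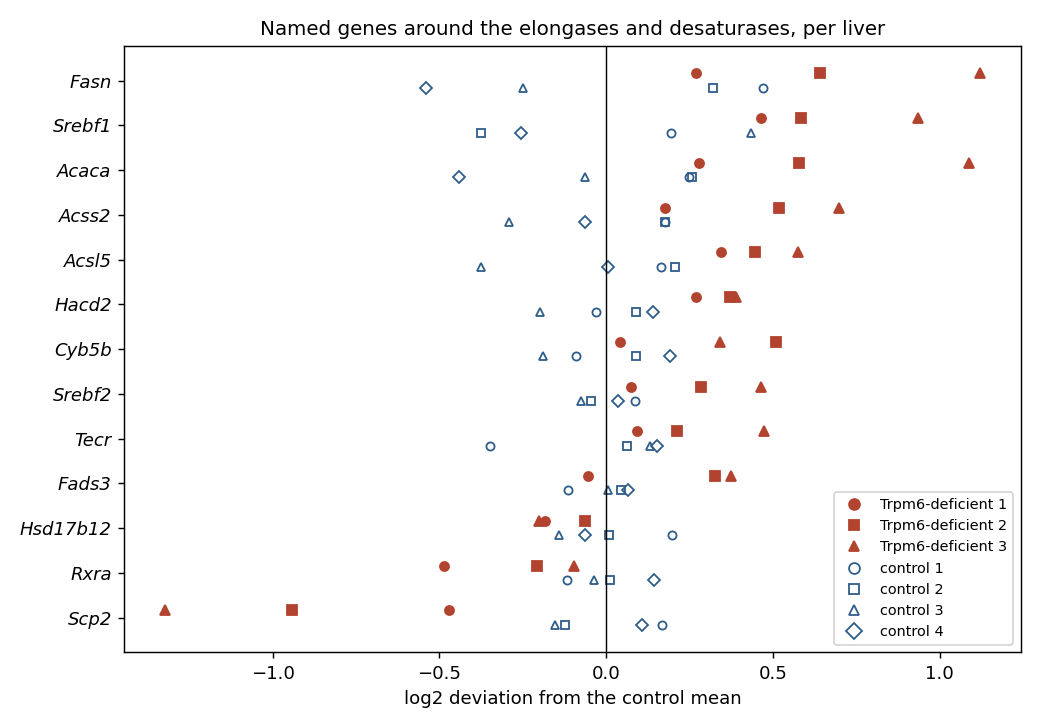
Log2 deviation from the control mean of the named genes of fatty acid synthesis, elongation, electron supply, regulation and later use, with 1 point per liver (filled, Trpm6-deficient, n = 3; open, control, n = 4). Scp2 lies lowest, at -0.91 in the mean of the Trpm6-deficient livers, and Fasn highest, at 0.68, with its groups overlapping.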

How the data were processed

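Liver RNA of 3 Trpm6-deficient and 4 control mice was hybridised to whole-transcript mouse gene arrays, 1 per mouse. The authors corrected the background, normalized between arrays and summarized probes in Affymetrix Expression Console 1.4.0 by RMA (tool and version from the submitters' processing notes). The deposited values are log2 expression, rounded by the authors to 2 decimals. RMA makes arrays share a distribution and compresses differences near background and near saturation. The deposited values were used without a filter. Probe sets were named by the platform annotation (21789 with 1 gene symbol, 1621 with several, 12146 with none), and the brightest probe set of a gene was used. limma 3.58.1 in R 4.3.3 compared the groups without a covariate (the study's methods name limma but no model), after a test on simulated data. Paired members were compared by exact permutation over arrays. Members, lists and tests were chosen with earlier results of these data known. All 10 members are named; of the listed genes of fatty acid synthesis and modification, those with p of at most 0.05 before adjustment, the largest change of each list, and Srebf1, Fasn, Acaca, Tecr, Hsd17b12 and Trpm6. The number of arrays limits the precision. Alternatives were another normalization, median centring, a filter, age, a replicate block, other variance models, array weights and leaving out each array. A further promoter motif search is not reported here.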

Additional observations from a re-analysis of the deposited data

Results flagged for a closer look

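Among the 24 genes examined for a control liver apart from the other 3, 3 were found by Dixon's criterion, and chance flags about 1 in 20 groups. Elovl5 was at 12.40 in control 3, with the other controls at 12.86 to 12.94. Fads1 was at 12.96 in control 1, with the others at 13.12 to 13.14. Fads2 was at 12.89 in control 1, with the others at 13.09 to 13.13.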

How the results depend on the processing

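No member passed under any alternative but 1, leaving out Trpm6-deficient 1, where 2 did (0 to 2 when each array was left out). At the nominal threshold the count higher was 1 as reported, 0 to 3 when each array was left out, and the count lower was 1 to 2. Over all probe sets 46 were called, 7 to 69 when each array was left out, 70 after probe sets with a mean below 5 were removed, 8 when age was added to the model and 14 at an adjusted p of 0.05; fewer arrays or fewer probe sets are part of these settings, and the cause was otherwise not tested. Elovl3 kept its direction throughout, with adjusted p-values of 0.0318 to 0.500. Only Elovl1 and Fads2 of the members turned sign. Elovl1 was -0.0033 without control 1 and -0.0125 without Trpm6-deficient 3 (-0.0125 to 0.193 when each array was left out), and Fads2 was -0.0124 with quantile normalization, -0.0233 without control 1 and -0.005 without Trpm6-deficient 2 (-0.0233 to 0.1).

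Whether same-numbered livers of both groups belonged together was not known. Their deviations from the group means correlated at 0.335, 0.260 and 0.0878 over probe sets. Trpm6-deficient 1 correlated best with control 1 and Trpm6-deficient 2 with control 2, whereas Trpm6-deficient 3 correlated best with control 4, at 0.226. A shared origin of these livers was not tested. With the replicate block, 1 probe set and 0 members were called, and 0 members were higher and 1 lower at the nominal threshold.

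The differences between paired genes kept their direction. When each array was left out they were 1.20 to 2.32 for Scd2 minus Scd1, -0.103 to -0.0575 for Fads2 minus Fads1, -0.52 to -0.30 for Elovl2 minus Elovl5 and -7.36 to -5.05 for Elovl3 minus Elovl6. With 2 Trpm6-deficient arrays the exact p cannot go below 0.133, and Elovl2 minus Elovl5 was -0.39 with quantile normalization (exact p = 0.114). Within 1 age, a setting chosen after seeing the data, Elovl1 was 0.24 at 12 and -0.06 at 13 weeks, Fads2 0.17 and -0.07, Fads1 0.30 and 0.005, Elovl5 0.03 and 0.36, and no other member turned sign. No member had over 1 probe set, so the mean over probe sets gave no other value.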
